A study of Mus musculus with 11 samples.

Results

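Liver X receptors (LXRs) and the genes that carry cholesterol out of the cell were measured in cultured lung fibroblasts of mice without cGAS and of WT mice. The 10 genes were taken by symbol as a pathway. They are the receptors Nr1h2 and Nr1h3, the exporters Abca1 and Abcg1, the extracellular lipid carriers and modifiers Apoe, Pltp and Lcat, the lysosomal cholesterol proteins Npc1 and Npc2, and the esterifying enzyme Soat1. They made up 10 of 58223 counted entries, and all 10 passed the low-count filter that left 22960 entries for testing. RNA came from 3 male and 3 female cGAS KO animals, set against 3 male and 2 female WT animals, with 1 library per animal. Cells of both genotypes were kept in the same serum-containing medium at reduced oxygen and were ribodepleted before sequencing, per the labels. The KO allele, the strain, the age of the mice and the number of passages were not stated in those labels. The labels call every sample primary fibroblasts, whereas their extraction text speaks of pulverized tissue.

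LXRs are nuclear receptors that are activated by oxysterols, oxidised forms of cholesterol, and that bind DNA as partners of the retinoid X receptors. Their targets include the membrane exporters Abca1 and Abcg1, which load cholesterol onto apolipoproteins and HDL particles, and secreted proteins such as Apoe and Pltp that carry or exchange lipid outside the cell. The system works opposite to sterol synthesis, which is driven by SREBP-2 when membrane cholesterol is low. In the lung, loss of Abcg1 or Abca1 in mice is known for lipid-laden macrophages and alveolar cells.

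Library totals ran from 27261958 to 48039328 counts, and values are given as CPM, the count scaled to the TMM-adjusted library size. Cgas, the targeted gene and the cytosolic DNA sensor that makes cyclic GMP-AMP, stood at 1.63 to 2.27 CPM in KO libraries and at 5.89 to 9.85 CPM in WT libraries, a log2 difference of −1.98 (SE 0.15, edgeR adjusted p = 0.000927). The fibroblast markers Col1a1 and Col1a2 stood between 6266 and 17250 CPM in every library, whereas the epithelial marker Epcam stayed at or below 0.346 CPM and the adipocyte marker Adipoq at or below 0.212 CPM. The epithelial list summed to 11.3 to 37.9 CPM in KO and 22.7 to 57.3 CPM in WT libraries, the endothelial list to 55.3 to 105 CPM in KO and 40.2 to 89.98 CPM in WT libraries, and the adipocyte list to 100.5 to 178 CPM in KO and 65.6 to 142.5 CPM in WT libraries. Macrophage markers were abundant in these cultures. Their 20 genes summed to 10390 to 17560 CPM in KO libraries (median 11200) and to 7179 to 10620 CPM in WT libraries (median 7695), none of the 20 was at 0 in all libraries, and Lyz2 alone reached 2996 to 6250 CPM in KO libraries and 2533 to 3771 CPM in WT libraries. WT female 2 stood apart from the rest, with a median correlation of 0.960 with the other libraries (0.978 to 0.985 for the others). In libraries of mixed cells, more cells of a type and more RNA per cell of it cannot be told apart.

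Over both sexes 9 of the 10 genes had a positive KO minus WT difference, Lcat being the exception, as did 48.0% of all entries. The differences of Apoe, the gene of apolipoprotein E, at 1.83-fold, and of the exporter Abca1, at 1.66-fold, were the widest of the 10. None of the 10 passed the threshold of 0.05 after adjustment over all entries. In males the lysosomal transporter Npc1 and the phospholipid transfer protein Pltp passed, both higher in KO cells at an edgeR adjusted p of 0.0478. Of all entries 1.22% passed in males and 0.00436% in females, where no member passed. In the test of genotype by sex 0 entries passed. The median log2 difference of the 10 genes was 0.27, against −0.01 for all entries tested.

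**Figure D1:**
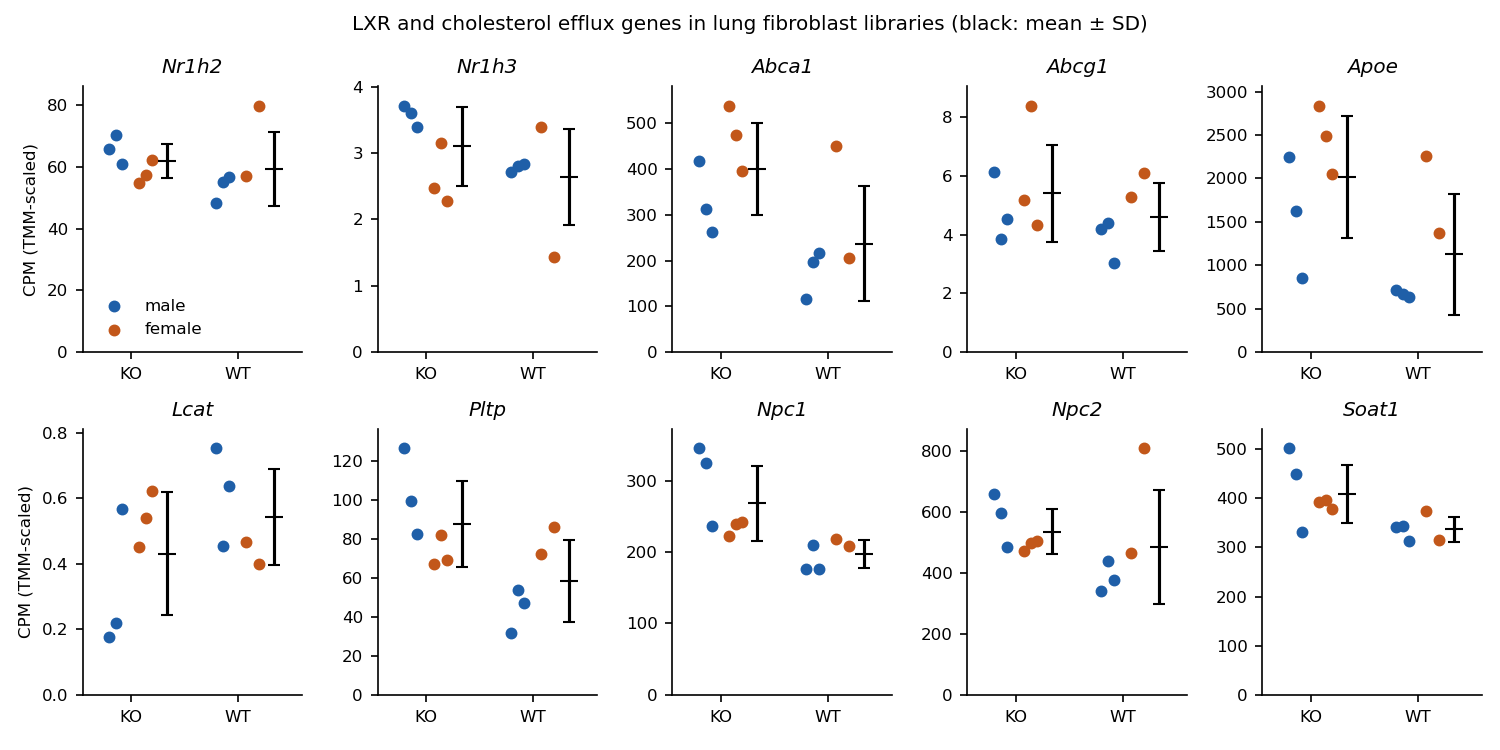
Level of each of the 10 genes in every library, in TMM-scaled CPM, for KO on the left and WT on the right of each panel. Blue points are males, orange points are females, and the black bars give the mean and SD over 6 KO and 5 WT libraries. Npc1 is the gene whose KO points, from 222 CPM up, lie clear of its WT points, which end at 218 CPM.

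Neither receptor gene passed in any comparison as tested with edgeR on all libraries. Nr1h2, which encodes the broadly expressed LXRβ, had 66.0, 70.3 and 61.1 CPM in KO males and 54.9, 57.4 and 62.3 CPM in KO females. In WT males it had 48.3, 55.2 and 56.7 CPM and in WT females 57.0 and 79.9 CPM. All KO males lay above all WT males, while the highest library of all was WT female 2. The log2 difference was 0.06 over both sexes (SE 0.12, edgeR adjusted p = 0.827), and its sign turned to −0.02 without WT male 1.

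Nr1h3 encodes LXRα, the form typical of liver, fat and macrophages. It had 3.72, 3.60 and 3.39 CPM in KO males and 2.47, 3.16 and 2.27 CPM in KO females, against 2.72, 2.81 and 2.84 CPM in WT males and 3.40 and 1.43 CPM in WT females. Male groups were separate and female groups overlapped. The log2 difference was 0.26 (SE 0.19, edgeR adjusted p = 0.491). Per kilobase of exon, the level of Nr1h2 averaged 18.5 CPM and that of Nr1h3 1.23 CPM in KO cells, and in WT cells the averages were 17.7 and 1.05 CPM, so LXRβ was the abundant receptor in both genotypes.

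Among 11 genes for receptor partners and coregulators, 10 were tested and 6 had a positive difference, with a median of 0.09. Over all entries 48.0% were positive, and limma-voom called 11.3%. Those with the smallest p were Rxra, the retinoid X receptor α, at a log2 difference of 0.33 (SE 0.10), Ncoa3, a coactivator, at 0.26 (SE 0.10), and Ttc39b, known in mice for promoting LXR degradation, at −0.29 (SE 0.11). With edgeR 0 of the 10 passed (adjusted p = 0.179, 0.230 and 0.211 for those named), 3 had an unadjusted p under 0.05, and DESeq2 called 0. With limma-voom 2 of the list passed, Rxra and Ncoa2.

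Of the exporters, Abca1 moves cholesterol and phospholipid to lipid-poor apolipoprotein A-I. Its promoter is printed beside that of Srebf1, the gene of the lipogenic factor SREBP-1 and another textbook LXR target, because the same run of letters is found in both. RefSeq sequences were available for 8 of the 10 genes, with no entry for Abcg1 and Npc1. The 250 bases before the transcription start are given for each, on the strand of the gene, from chr4:53159896-53160145 and chr11:60210472-60210721 of GRCm38.p6, both on the minus strand. Capitals mark the closest match to the LXR direct repeat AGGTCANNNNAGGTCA, read on either strand.
Abca1: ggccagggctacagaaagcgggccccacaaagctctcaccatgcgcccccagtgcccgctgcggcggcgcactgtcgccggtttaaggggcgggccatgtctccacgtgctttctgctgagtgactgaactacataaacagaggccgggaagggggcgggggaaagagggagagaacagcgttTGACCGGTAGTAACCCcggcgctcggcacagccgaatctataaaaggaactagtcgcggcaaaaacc
Srebf1: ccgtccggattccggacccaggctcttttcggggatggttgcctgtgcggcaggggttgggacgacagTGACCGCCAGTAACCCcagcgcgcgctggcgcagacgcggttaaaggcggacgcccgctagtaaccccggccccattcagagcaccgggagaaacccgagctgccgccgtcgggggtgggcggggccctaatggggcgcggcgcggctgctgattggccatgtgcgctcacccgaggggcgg

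The Abca1 match lies 67 to 52 bases before the start and the Srebf1 match 182 to 167 bases before the start, 1 of 3 starts listed for Srebf1. Read in the direction of the repeat they are GGGTTACTACCGGTCA and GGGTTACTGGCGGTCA, each with 3 mismatches to it. A match with up to 3 mismatches is common, being present in 21.9% of all 32851 promoter windows and in 24.5% of 27025 genes. Of the 8 members it was found in Abca1 and Lcat. With up to 2 mismatches it was present in 3.02% of windows, in 3.47% of genes and in 0 of the 8 members. The windows searched also run a short way past the start. The letters shared by both, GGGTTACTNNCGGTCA, were taken after the sequences were seen, and 3 of 27025 genes carry them exactly. Abca1 and Srebf1 are among these by construction, so that count is no test of an LXR element. These matches describe letters in a window, and no binding was measured.

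Abca1 had 418, 313 and 264 CPM in KO males and 539, 474 and 396 CPM in KO females, against 117, 198 and 217 CPM in WT males and 449.7 and 205 CPM in WT females. All 6 KO libraries lay above the 3 WT males and WT female 2, and the overlap of the genotypes came from WT female 1. The mean was 400.5 ± 101 CPM in KO cells (SD, n = 6) and 237 ± 125 CPM in WT cells (SD, n = 5). The log2 difference was 0.73 (SE 0.23, edgeR adjusted p = 0.183), and it ran from 0.58 to 1.0 when each library in turn was left out. Without WT female 1 the log2 difference was 1.0.

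Abcg1 passes cholesterol to HDL particles and was a low transcript here, at 6.14, 3.84 and 4.55 CPM in KO males and 5.19, 8.39 and 4.33 CPM in KO females. WT males had 4.20, 4.39 and 3.05 CPM and WT females 5.27 and 6.09 CPM. The groups overlapped in each sex, and the log2 difference was 0.21 (SE 0.19, edgeR adjusted p = 0.597).

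Among the secreted proteins, Apoe encodes apolipoprotein E, a lipoprotein component that macrophages also make in quantity, and its transcript was the most abundant of the 10 per length. It had 2248, 1627 and 852 CPM in KO males and 2837, 2488 and 2055 CPM in KO females, against 717, 667 and 639 CPM in WT males and 2254 and 1367 CPM in WT females. All KO males lay above all WT males, whose 3 values were close together, and WT female 1 lay above KO female 3. The log2 difference was 0.87 over both sexes (SE 0.25, edgeR adjusted p = 0.177), 1.22 in males (SE 0.31, edgeR adjusted p = 0.0604) and 0.44 in females (SE 0.34, edgeR adjusted p = 0.685). With DESeq2 Apoe passed over both sexes (DESeq2 adjusted p = 0.0339), and without WT female 1 its edgeR log2 difference was 1.09.

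Pltp moves phospholipid between lipoproteins and remodels HDL. It had 127, 99.6 and 82.6 CPM in KO males and 67.5, 82.2 and 69.4 CPM in KO females, against 32.0, 54.2 and 47.5 CPM in WT males and 72.6 and 86.3 CPM in WT females. Male groups stood well apart, and the female groups were interleaved. Pltp rose in KO males at a log2 difference of 1.21 (SE 0.20, edgeR adjusted p = 0.0478), which is 2.31-fold. In females the log2 difference was −0.12 (SE 0.22, edgeR adjusted p = 0.850). The difference between the sexes was 1.33 (SE 0.30, unadjusted p = 0.0011) and did not pass over all entries (edgeR adjusted p = 0.307). Pltp shares 495 of its 2562 exon bases with the opposite-strand lysosomal gene Ctsa, whose counts cannot be told apart there without strand. Ctsa itself had a log2 difference of 0.80 in males and −0.36 in females.

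Lcat, the plasma enzyme that esterifies cholesterol on HDL and is made mainly by liver, was close to the limit of detection, with 8 to 28 counts in KO libraries and 15 to 31 counts in WT libraries. Its levels were 0.178, 0.221 and 0.569 CPM in KO males and 0.453, 0.540 and 0.623 CPM in KO females, against 0.752, 0.454 and 0.636 CPM in WT males and 0.468 and 0.401 CPM in WT females. KO males 1 and 2 were the lowest libraries, and the genotypes overlapped in males and over both sexes. Its log2 difference was −0.39 (SE 0.34, edgeR adjusted p = 0.586).

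The lysosomal pair hands cholesterol from endocytosed lipoprotein to the rest of the cell. Npc1, the membrane protein whose loss causes Niemann-Pick type C disease, had 345, 325 and 237 CPM in KO males and 222, 239 and 242 CPM in KO females, against 176, 209 and 176 CPM in WT males and 218 and 208 CPM in WT females. Every KO library lay above every WT library, by a narrow margin in females. Of all entries tested, 0.98% had KO libraries wholly above WT libraries, and Npc1 was 1 of the 10 to do so. Over both sexes the log2 difference was 0.44 (SE 0.13, edgeR adjusted p = 0.177). In males Npc1 rose by 0.69 (SE 0.14, edgeR adjusted p = 0.0478), or 1.62-fold, and in females the log2 difference was 0.14 (SE 0.15, edgeR adjusted p = 0.747). Npc1 shares 511 of 11317 exon bases with the opposite-strand gene Rmc1, which had 0.37 in males on the log2 scale, and 90 with the antisense RNA Gm15956, which had 0.67.

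Npc2 is the soluble partner that passes cholesterol to Npc1. It had 658, 596 and 483 CPM in KO males and 469.9, 498 and 504 CPM in KO females, against 340.3, 439 and 377 CPM in WT males and 466 and 807 CPM in WT females. Male groups were separate, and WT female 2 was the highest of the 11 libraries. In log2 units the difference was 0.59 in males (SE 0.19, edgeR adjusted p = 0.111) and −0.38 in females (SE 0.21, edgeR adjusted p = 0.671). The difference between the sexes was 0.96 (SE 0.28, edgeR adjusted p = 0.307).

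Soat1 makes cholesteryl esters in the endoplasmic reticulum and so stores what is not exported. It had 501, 450.1 and 331 CPM in KO males and 392, 396 and 379 CPM in KO females, against 341, 343 and 313 CPM in WT males and 374 and 314 CPM in WT females. KO females lay above WT females, whereas KO male 3 lay within the WT males. Over both sexes the log2 difference of Soat1 was 0.28 (SE 0.11, edgeR adjusted p = 0.229).

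With edgeR 0 of the 10 genes passed over both sexes, where 0.00436% of all entries passed (Cgas alone). At an unadjusted p under 0.05, 5 of the 10 counted, all higher in KO cells: Abca1, Apoe, Npc1, Soat1 and Pltp. That rule took 10.3% of all entries in the higher direction. Apoe was the 1 gene of the 10 that DESeq2 called, and limma-voom (run with quality weights per library) called 5. DESeq2 called 1.36% of its 38314 entries, of which 16024 were given an adjusted p. Limma-voom called 11.3% of all its entries. In edgeR without WT female 1 the log2 difference was 1.0 for Abca1 and 1.09 for Apoe. The last fit leaves WT female 2 as the lone WT female, assumed to vary like the other groups.

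**Figure D2:**
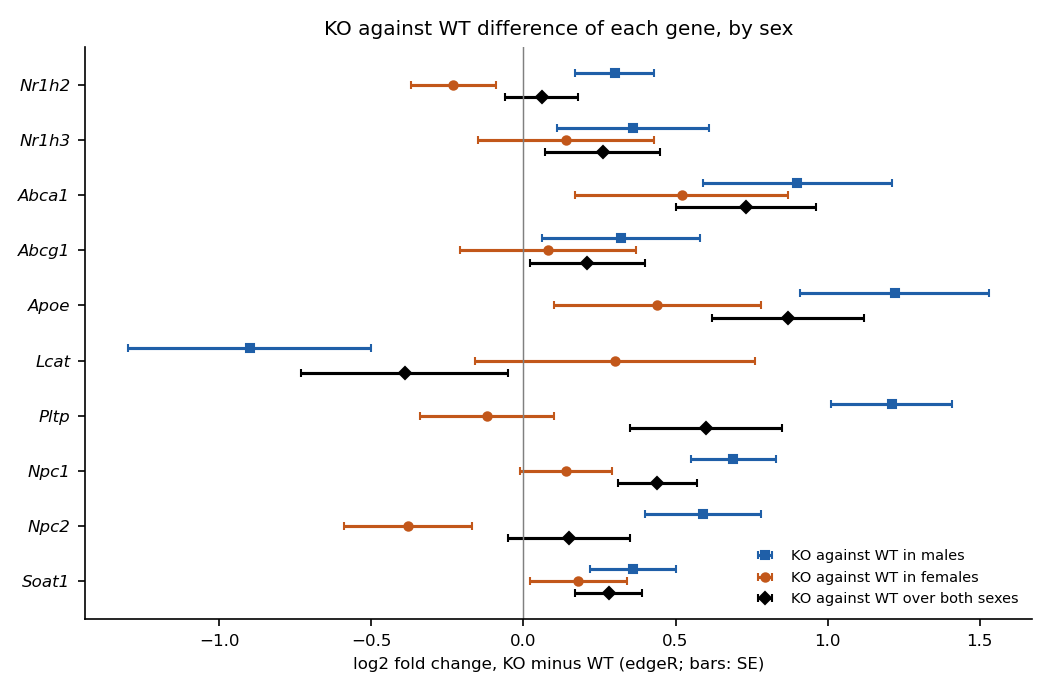
Log2 difference of KO minus WT for each of the 10 genes, with SE bars, in males (blue squares), in females (orange circles) and over both sexes (black diamonds). In males 9 of 10 lie right of 0, up to 1.22 for Apoe, and in females the values run from −0.38 for Npc2 to 0.52 for Abca1.

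In males 2 of the 10 genes passed, Npc1 and Pltp, both higher in KO cells. Over all entries 1.22% passed in males and 0.719% passed in the higher direction. Of the 10 genes 7 had KO males wholly above WT males (Nr1h2, Nr1h3, Abca1, Apoe, Npc1, Npc2 and Pltp), a pattern found in 16.9% of all entries. In this sex 9 of the 10 differences were positive, as were 47.7% of all, and their median was 0.48, against −0.02 for all entries. Both calls rest on small margins: the adjusted p was 0.0478, and it was 0.0508 with RLE size factors and 0.0540 with library totals. The calls were lost without KO female 1, 2 or 3, KO male 1 or 2, or WT male 1 or 3, with adjusted p for Npc1 of 0.0623, 0.0780, 0.0885, 0.206, 0.196, 0.140 and 0.145 in that order. For Pltp these were 0.0623, 0.0780, 0.0885, 0.206, 0.196, 0.131 and 0.145.

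Macrophage markers moved with the male result. Their sum was 17560, 15590 and 10390 CPM in KO males and 7565, 9722 and 7179 CPM in WT males, with no overlap. A positive difference was found for 19 of 20 markers (median 0.82) and for 47.7% of all entries. Of the 20, 4 passed in males, where 0.719% of all entries were called higher. Among them was Adgre1, the F4/80 antigen, at 1.02 (SE 0.19, edgeR adjusted p = 0.0478), the highest value of the 20. Ptprc at 0.82, Lyz2 at 0.76 and Csf1r at 0.62 did not pass (edgeR adjusted p = 0.05, 0.0926 and 0.213). Male groups overlapped for Lyz2 and Csf1r. The Adgre1 call was lost under the same 7 omissions as those of Npc1 and Pltp, with edgeR adjusted p from 0.0623 to 0.206. These omissions left 0 to 17 male calls among all entries, against 280 as reported. The shared loss is therefore not particular to these genes and does not link them. KO males 1 and 2, with the highest sums, also had the highest Npc1, Pltp, Soat1 and Nr1h3 of all libraries. The other members peaked elsewhere: Apoe and Abca1 in KO female 1, Abcg1 in KO female 2, Nr1h2 and Npc2 in WT female 2, and Lcat in WT male 1. In females the sum was 10850, 11550 and 10400 CPM in KO and 10620 and 7695 CPM in WT, and 15 of 20 markers were positive (median 0.13). Epithelial markers were positive for 0 of 8 tested in males (median −1.36, 5 with an unadjusted p under 0.05), endothelial markers for 2 of 8 (median −1.47, 7 with such a p) and adipocyte markers for 4 of 4 (median 0.77, 2 with such a p), and with edgeR 0 of these markers passed. The epithelial sum was 11.3 to 14.4 CPM in KO males and 22.7 to 57.3 CPM in WT males, with no overlap. The endothelial sum overlapped, at 55.3 to 101.5 CPM in KO males and 40.2 to 89.98 CPM in WT males. Its median was higher in KO males (92.1 against 52.7 CPM), unlike the signs of most endothelial markers. Fibroblast markers were positive for 5 of 10 in males (median −0.03). In females 4 of 8 epithelial (median 0.12), 6 of 8 endothelial (median 0.36) and 1 of 4 adipocyte markers (median −0.39) were positive, with 0 of each at an unadjusted p under 0.05. The part of RNA from other cell types in the differences of the 10 genes was not tested.

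**Figure D3:**
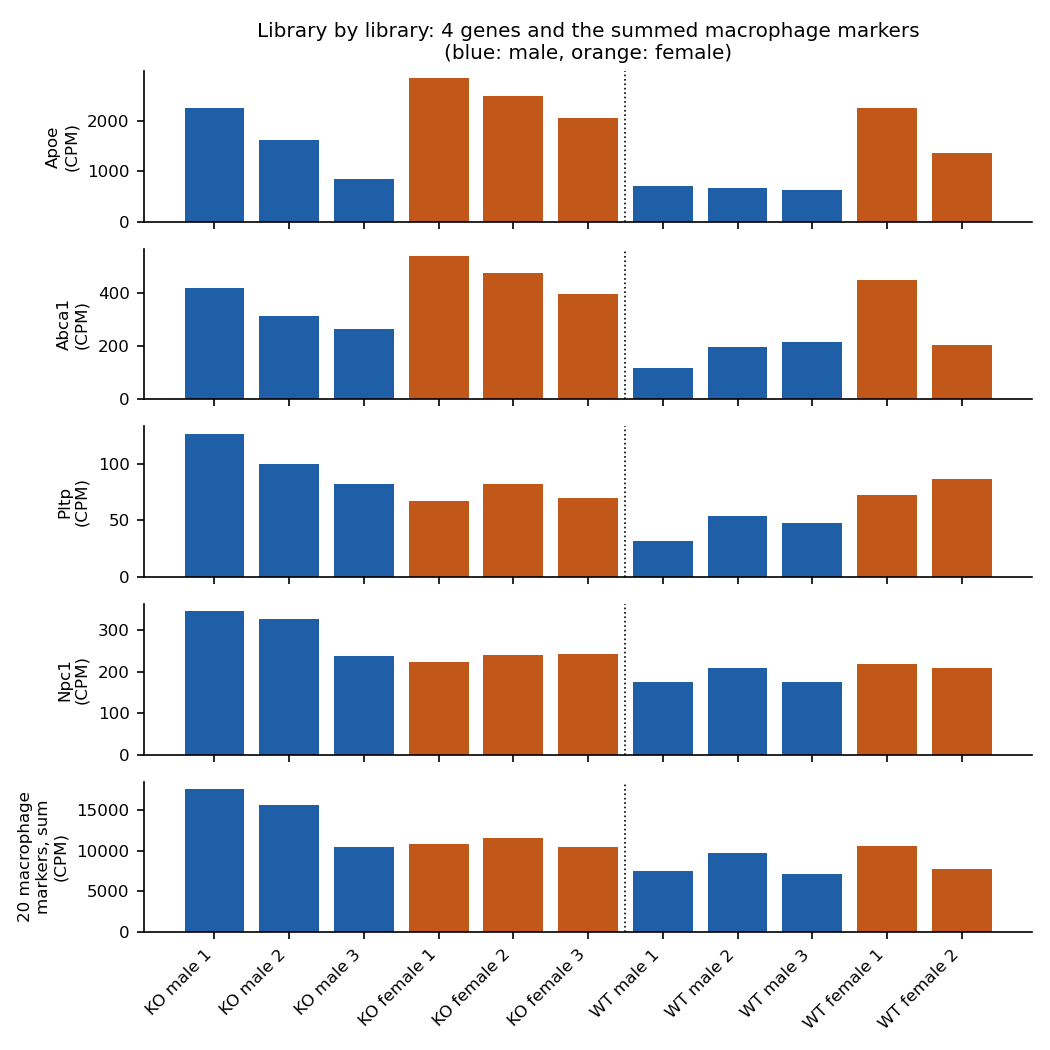
Level of Apoe, Abca1, Pltp and Npc1 and the sum of 20 macrophage markers in each library, in CPM, with KO libraries left of the dotted line and WT libraries right of it. Blue bars are males and orange bars are females. KO males 1 and 2 are highest for Pltp, Npc1 and the marker sum, while Apoe and Abca1 peak in KO female 1.

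In females 0 of the 10 genes passed with edgeR, where 0.00436% of all entries passed, and 0 of the 10 had an unadjusted p under 0.05, as 6.63% of all entries did. DESeq2 and limma-voom also called 0 of the 10, where over all entries in females DESeq2 called 6 (0.0157%) and limma-voom 0. KO females lay wholly above WT females for Npc1 and Soat1, a pattern of 11.2% of all entries. The median log2 difference was 0.14, against 0.03 for all entries. Without WT female 1, 3 passed, with Nr1h3 higher and Nr1h2 and Npc2 lower in KO females. That fit called 3695 of 24126 entries in females, or 15.3%, and its lone WT female is the library that stands apart, WT female 2.

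The test of genotype by sex asked whether the KO difference of males and that of females were unequal. With edgeR 0 of the 10 passed and 0.0% of all entries did, while 4 of the 10 (Nr1h2, Npc1, Npc2 and Pltp) and 12.9% of all entries had an unadjusted p under 0.05. Limma-voom called 0 of all its 22889 entries. DESeq2 called Pltp, limma-voom called 0, and without WT female 1 edgeR called Nr1h2, Npc2 and Pltp. Over all entries DESeq2 called 220, and edgeR without WT female 1, with WT female 2 as the lone WT female, called 2430 of 24126, or 10.1%.

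Males and females were also set against each other at equal genotype. Apoe was lower in males, at a log2 difference of −1.0 (SE 0.25, edgeR adjusted p = 0.0485). It averaged 1576 ± 700 CPM in KO males and 2460 ± 392 CPM in KO females (SD, n = 3 each), and 675 ± 39.5 CPM in WT males (SD, n = 3), against 1810 ± 627 CPM in WT females (SD, n = 2). Abca1 had a log2 difference of −0.67 in males (SE 0.22, edgeR adjusted p = 0.0904). Of the 10, 1 passed, against 4.16% of all entries, and 1.89% of all entries were lower in males. The Apoe call held without KO male 1 (adjusted p = 0.0250) and without WT female 1 (0.0472). It was lost without KO female 1, 2 or 3 (adjusted p = 0.0904, 0.0940 and 0.0856), KO male 2 or 3 (0.107 and 0.0894), WT female 2 (0.0697), or WT male 1, 2 or 3 (0.0763, 0.106 and 0.0572), and with gene entries alone (0.0532). The libraries of males and of females are named in different styles. What the styles mark is not stated in the sources used here, and sex cannot be told apart from whatever differs with them.

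**Figure D4:**
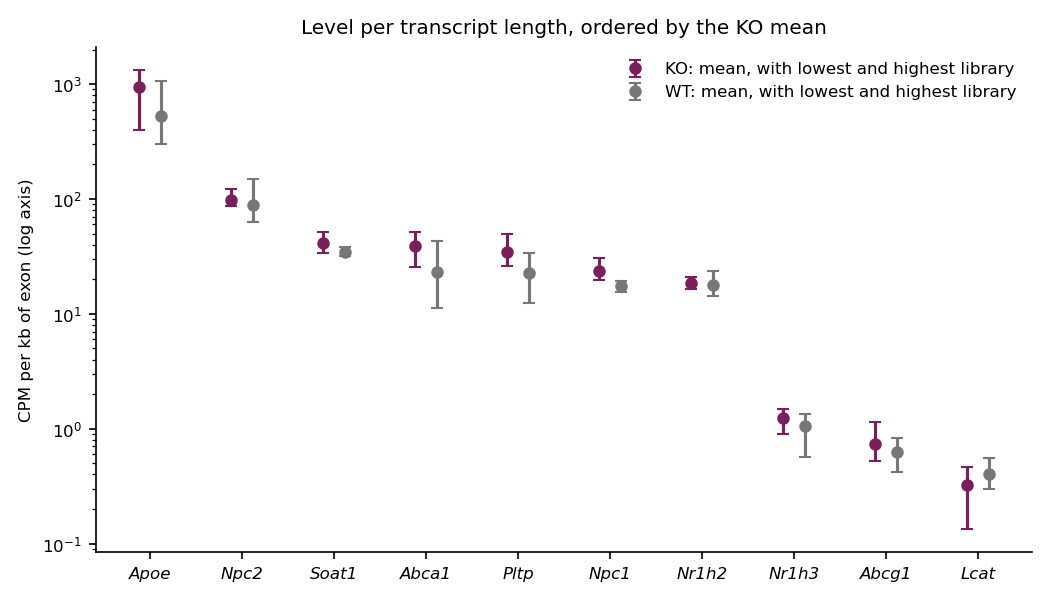
Mean level of each gene per kilobase of exon, in CPM on a log axis, with bars from the lowest to the highest library, KO in purple and WT in grey. The order runs from Apoe, at 944 in KO and 528 in WT, to Lcat, at 0.321 in KO and 0.404 in WT.

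Levels of different genes were ordered per kilobase of exon. In KO cells the order was Apoe at 944 ± 328 CPM per kb, Npc2 at 98.4 ± 13.8, Soat1 at 41.7 ± 6.06, Abca1 at 38.7 ± 9.76, Pltp at 34.3 ± 8.66, Npc1 at 23.7 ± 4.65, Nr1h2 at 18.5 ± 1.67, Nr1h3 at 1.23 ± 0.239, Abcg1 at 0.741 ± 0.228 and Lcat at 0.321 ± 0.140 (SD, n = 6). Apoe and Npc2 stood clear of the gene below them in every library. From Soat1 to Nr1h2 each gene's range overlapped that of its neighbour, and so did those of Nr1h3 and Abcg1. In WT cells the order was the same except that Nr1h2 (17.7 ± 3.57) and Npc1 (17.4 ± 1.77) changed places within overlapping ranges (SD, n = 5). Abca1 averaged 22.9 ± 12.1 CPM per kb there and Apoe 528 ± 326.

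Other genes of the pathway gave the setting. Of 15 other LXR targets 11 were tested, and 10 had a positive difference over both sexes, with a median of 0.37. Over all entries 48.0% were positive. Mertk, a receptor for clearing dead cells, stood at 64.9 ± 11.7 CPM in KO cells (SD, n = 6) and 39.2 ± 9.39 CPM in WT cells (SD, n = 5), a log2 difference of 0.72 (SE 0.16, edgeR adjusted p = 0.177). Scd2, a fatty acid desaturase, had 0.74 (SE 0.18) and Srebf1 0.33 (SE 0.08), both at the same adjusted p. With edgeR 0 of these 11 passed, against 6 at an unadjusted p under 0.05, while DESeq2 called Srebf1, Mertk and Scd2, and limma-voom called 6. Of all entries 10.3% were higher at that unadjusted p, DESeq2 called 1.36% and limma-voom 11.3%. Without WT female 1 edgeR called many more of all entries, so its calls in this list are not counted.

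Further efflux and HDL genes gave 5 positive of 8 tested (of 11), with a median of 0.18, where 48.0% of all entries were positive. Abca7, a relative of Abca1, had a log2 difference of 0.29 (SE 0.07), the HDL receptor Scarb1 0.31 (SE 0.12) and Apoa2, an HDL apolipoprotein near the filter at 0.311 CPM in KO and 0.200 CPM in WT cells, 0.66 (SE 0.33). Oxysterol enzymes, which make or clear LXR ligands, gave 4 positive of 7, with a median of 0.36. Cyp27a1, the sterol 27-hydroxylase, had 0.75 (SE 0.19), Hsd3b7, which acts on oxysterols bound for bile acids, 0.42 (SE 0.16), and Cyp46a1, the cholesterol 24-hydroxylase of neurons, −1.08 (SE 0.57), the last resting on 1.43 CPM in WT female 2. By edgeR 0 of both lists passed, with 2 of each at an unadjusted p under 0.05. With DESeq2 the calls were Abca7 and Cyp27a1, and limma-voom called 2 of each list. Of all entries 10.3% were higher at an unadjusted p under 0.05, DESeq2 called 1.36% and limma-voom 11.3%. Calls of the edgeR fit without WT female 1 are not counted here either.

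Lysosomal and non-vesicular transport genes gave 14 positive of 17, with a median of 0.19, where 48.0% of all entries were positive. Stard4, a soluble sterol carrier of the cytosol, had a log2 difference of 0.76 over both sexes (SE 0.15, edgeR adjusted p = 0.177) and rose in males by 1.07 (SE 0.16, edgeR adjusted p = 0.0478). That call did not hold when KO female 1, 2 or 3 was left out (adjusted p = 0.0520, 0.0780 and 0.0864), nor without KO male 1 or 2 (0.206 and 0.196) or WT male 1 or 3 (0.140 and 0.145), nor with RLE size factors (0.0508) or library totals (0.0540). The sterol carrier Scp2 had 0.37 (SE 0.11) and the lipid kinase gene Pip4k2a 0.29 (SE 0.09). Genes of ester storage and hydrolysis were mixed, with 2 positive of 5 tested and a median of −0.25. The hydrolases Nceh1 and Lipe, which release cholesterol from esters, had 0.42 (SE 0.14) and 0.41 (SE 0.12), and Soat2, the second esterifying enzyme, −0.27 (SE 0.19). With edgeR 0 of both lists passed over both sexes, with 6 and 2 at an unadjusted p under 0.05. All of these were higher in KO cells, as were 10.3% of all entries at that p. Over all entries DESeq2 called 1.36% and limma-voom 11.3%. DESeq2 called Stard4, and limma-voom called 6 and 1.

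Sterol synthesis and uptake, the counterpart of export, had mostly positive differences over both sexes, as Abca1 and Abcg1 did, though neither exporter passed. Of 24 genes 23 had a positive log2 difference, with a median of 0.71, where 48.0% of all entries were positive. KO libraries lay wholly above WT libraries for 16 of them and for 0.98% of all entries. Examples were Idi1, which isomerises isopentenyl diphosphate, at 0.88 (SE 0.15), Acat2, the thiolase at the head of the pathway, at 0.80 (SE 0.14) and the sterol dehydrogenase Nsdhl at 0.75 (SE 0.12). With edgeR 0 passed over both sexes, 23 had an unadjusted p under 0.05, and DESeq2 called 22. In males 17 of the 24 passed, all higher in KO cells, where 1.22% of all entries passed and 0.719% were called higher, and in females 0 passed with edgeR and 15 had an unadjusted p under 0.05. The male count was 4, 0 and 3 without KO female 1, 2 and 3, 0 without KO male 1 or 2 or WT male 1 or 3, 3 with RLE size factors and 1 with library totals.

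**Figure D5:**
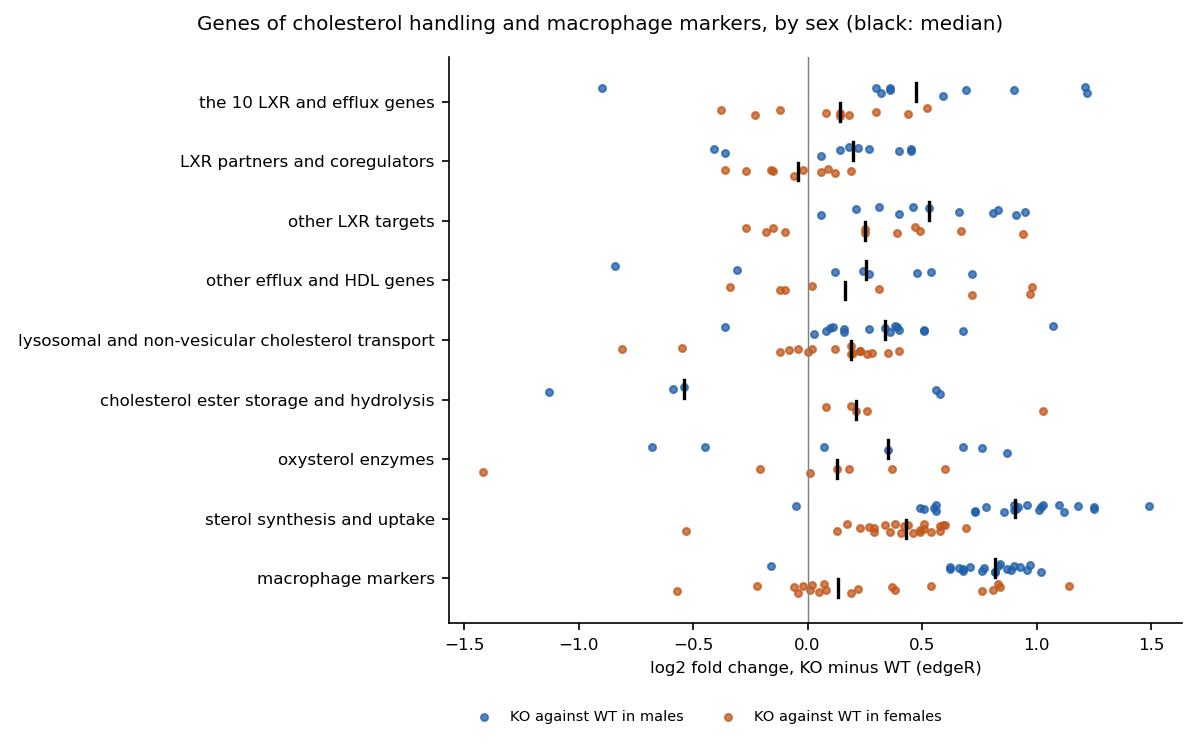
Log2 difference of KO minus WT for each gene of the pathway lists and for macrophage markers, in males (blue) and in females (orange), with a black line at each median. The medians in males are 0.48 for the 10 genes, 0.91 for sterol synthesis and 0.82 for macrophage markers, and in females they are 0.14, 0.43 and 0.13.

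The transcripts that tracked each gene most closely over the 11 libraries were found by the root-mean-square difference of centred log2 CPM, as a description. For Apoe, whose own SD was 0.830 on that scale, they were Tlr9 (0.226), Cd83 (0.261) and Clec7a (0.323). For Abca1, with an SD of 0.681, they were Ms4a14 (0.207), Mir5114 (0.247) and Scd2 (0.257). Pltp lay nearest to Naglu (0.144), Aph1c (0.145) and Arhgef3 (0.160), and Npc1 to Ubl3 (0.0544) and Tpra1 (0.0622). Npc2 lay nearest to Galns (0.0481), Ero1lb (0.0688) and Ncoa1 (0.0765), and Soat1 to Rreb1 (0.0670), Znrf2 (0.0695) and Atp2b1 (0.0749). Receptor profiles were nearest to Tmem60, Dnajc4 and Atg12 for Nr1h2 (0.0501 to 0.0563) and to Zfp518a, Mccc2 and Ift22 for Nr1h3 (0.114 to 0.130). Abcg1 lay nearest to Tmem243, Zfp120 and mt-Ty (0.233 to 0.248), and Lcat to Ptchd4, Nexn and Mrvi1 (0.241 to 0.256). Every point is a library, so depth and cell content enter all of these values.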

How the data were processed

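Total RNA of 11 lung fibroblast libraries was compared. The authors deposited raw whole-number counts per gene and repeat subfamily, 1 table per library. The submitters' processing notes name Trim Galore, STAR and GRCm39, while the counting program, its strand setting and the annotation are not given in the sources used here. Symbols (52073 of 56980 gene IDs matched) and exon lengths came from GENCODE vM21 (GRCm38), which served for names, lengths and overlaps. Promoter windows came from RefSeq (GRCm38.p6).

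Counts were filtered with filterByExpr (minimum count 10), scaled by TMM over all entries (factors 0.963 to 1.03) and tested with edgeR 4.0.16 in R 4.3.3 by quasi-likelihood. The fit over both sexes and that of males against females used sex and genotype (8 residual degrees of freedom), and the contrasts within a sex or between the sexes' differences used a mean for each genotype and sex (7). P-values were adjusted by Benjamini-Hochberg over all 22960 entries, with a threshold of 0.05. Fold changes are KO minus WT on the log2 scale, or male minus female. Errors are SD for CPM and SE for log2 differences. Animals are the replicates, and libraries of 1 group differed beyond counting noise (chi-square per degree of freedom 12.0 to 144). A count of 0 allows up to 3 counts, or 0.0624 to 0.110 CPM, counting error only.

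Alternatives were DESeq2 1.42.0, limma-voom (limma 3.58.1) with sample quality weights, RLE size factors, unscaled library totals, gene entries alone, no low-count filter, a replicate block, and leaving out each library. In simulated data of KO against WT over both sexes (22752 genes), 38.5% of genes changed by 0.5 on the log2 scale were recovered, 87.9% at 1 and 100.0% at 2. There were 9 false calls. The simulation gave every gene the same spread between libraries, with no effect of sex or cell content. Its shares check the fit and do not give the recovery in the real libraries. Members and lists were chosen with earlier results of these data known. The text names Cgas, the 10 genes, the 3 genes of each pathway list with the smallest p, the 3 nearest profiles of each of the 10 and fixed defining markers. A profile near Npc1 is not reported here. Genes named beside a small count of calls, and the shared promoter letters, were chosen after their values were seen.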

Additional observations from a re-analysis of the deposited data

Results flagged for a closer look

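Nr1h3, the gene of LXRα, had its lowest WT value in WT female 2, at 1.43 CPM, while the other 4 WT libraries ran from 2.72 to 3.40 CPM. On the log2 CPM scale the gap to the next library was 0.74 of the whole WT range, above the critical value of 0.71 for 5 samples. Of 20 groups of the 10 genes tested in this way, 1 was singled out, and chance alone gives about 1 in 20. WT female 2 is also the library with the lowest correlation with the others (0.960) and the highest share of counts on repeats (10.2%). Without it the log2 difference of Nr1h3 over both sexes was 0.12 (edgeR adjusted p = 0.692), against 0.26 with it. Without WT female 1 it was 0.51.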

How the results depend on the processing

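Over both sexes 0 of the 10 genes passed as reported, 1 with DESeq2 and 5 with limma-voom. When any library but WT female 1 was left out, 0 passed. The fit without WT female 1 called many more of all entries over both sexes, and its calls there are not counted. In males 2 passed as reported, 5 with DESeq2 and 8 with limma-voom (7 higher, 1 lower). In that sex 0 to 5 passed without a library, and 0 with RLE size factors or library totals. Over all entries RLE size factors called 8 (0.0348%) in males and library totals 4 (0.0174%). In females the range without a library was 0 to 3. For genotype by sex, DESeq2 called 1 and the range was 0 to 3. For males against females, 1 passed as reported, 2 with DESeq2, 2 with limma-voom, 0 with gene entries alone and 0 to 2 without a library. The other lists had 0 calls over both sexes as reported, and limma-voom gave 2 (partners), 6 (other LXR targets), 2 (efflux), 6 (lysosomal), 1 (ester storage), 2 (oxysterol) and 23 (sterol synthesis). DESeq2 gave 3 (other LXR targets), 1 (efflux), 1 (lysosomal), 1 (oxysterol) and 22 (sterol synthesis). Leaving out any library but WT female 1 gave 0 calls over both sexes in each of these lists. Sterol genes called in males, an alternative count added after seeing the data, were 17 as reported, 3 with RLE size factors, 1 with library totals and 0 to 22 without a library. The cause of these shifts was not tested.

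In the limma-voom fit of sex and genotype WT male 2 had a quality weight of 5.46, and the remaining WT libraries had 0.143 to 0.600. The WT side of that fit rests largely on WT male 2. In the limma-voom fit of group means, used within each sex, it had 2.365 and the remaining WT libraries 0.2795 to 0.625. Over all entries limma-voom called 2586 over both sexes (11.3%) and 4192 in males (18.3%), and DESeq2 called 521 (1.36%) and 2035 (5.31%). The DESeq2 shares are of all 38314 entries, of which only 16024 over both sexes and 19740 in males were given an adjusted p. With edgeR the counts were 1 and 280 as reported, and 3 and 1079 without the low-count filter. For males against females limma-voom called 25.7% of all entries and DESeq2 7.24%, with an adjusted p for 21962 of its entries. Signs turned for Nr1h2 without WT male 1 (−0.02 to 0.22 over the fits without a library) and for Cyp46a1 with limma-voom (0.03).

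Replicate numbers did not pair the libraries: the correlation of deviations within a sex was −0.134 to 0.0758 where KO and WT shared a number (5 pairs) and −0.226 to 0.174 where they did not (10 pairs). The fit with the replicate block, which has fewer residual degrees of freedom, called 0 of all 22960 entries in every comparison it covered, Cgas included. That it called 0 of the 10 genes and 0 of the sterol genes is therefore not particular to them. Stard4 and Adgre1 each had a male edgeR adjusted p of 0.132 in it. The block was the number within a sex, so it was not applied to males against females. Lcat, at 8 to 31 counts per library, is the gene most limited by depth.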

Other observations

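The small apolipoprotein genes that lie next to Apoe in the mouse genome were read for comparison. Apoc2, the cofactor of lipoprotein lipase, had 2.00, 1.37 and 0.650 CPM in KO males and 1.90, 1.75 and 1.58 CPM in KO females, against 0.922, 0.887 and 0.451 CPM in WT males and 1.59 and 0.276 CPM in WT females. Its log2 difference of 0.87 (SE 0.39, edgeR adjusted p = 0.294) had the same size as that of Apoe, with a wider error. Apoc1, an inhibitor of lipid transfer, had 0.57 (SE 0.56, edgeR adjusted p = 0.627), with 0.133 to 0.935 CPM in KO libraries and values up to 0.468 CPM in WT libraries. Apoc4 was below the low-count filter. The genotypes overlapped for each of these genes.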
